A study of Mus musculus with 11 samples.

Results

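A set of 36 immediate early and heat shock genes, 36 of the 24421 genes counted in the files, was followed in purified mouse retinal ganglion cells with and without Tbr1. The members were chosen by symbol as genes that neuronal activity, tissue dissociation and cell sorting are known to raise. All 36 symbols were found in every library, 27 of them immediate early genes and 9 heat shock genes. The cells were J-RGCs, a ganglion cell type marked with a green fluorescent protein by a transgenic line and collected by flow cytometry from retinas at postnatal day 4 to 5. Mice were on a mixed C57BL/6 and CD1 background, and the genotypes compared were WT and Tbr1 KO. The labels do not say how Tbr1 was removed or which reporter line was used. Each library came from a pool of 100 sorted cells, and 11 libraries were made. WT animal a gave library 1, b gave libraries 2 and 3, c gave library 4 and d gave library 5. Tbr1 KO animal a gave libraries 1 and 2, b gave 3 and 4, c gave 5 and d gave 6. Counts of 1 animal were summed, so 4 animals stood against 4.

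Immediate early genes are transcribed within minutes of a stimulus, without new protein synthesis, because kinase cascades switch on factors such as SRF and CREB that already sit at their promoters. Many of the products are themselves transcription factors, among them the FOS and JUN proteins that pair to form AP-1. Heat shock genes encode chaperones that fold other proteins; some are made at all times, and others are switched on by the heat shock factor HSF1 when proteins misfold. Both classes are known to respond when tissue is taken apart for sorting. All libraries here were sorted, so no level could be set against undisturbed cells.

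Promoter sequences were read for the 29 members that the RefSeq table of GRCm38.p6 holds; Egr1, Egr3, Ier2, Arc, Hspa8, Hsp90aa1 and Hsp90ab1 had no entry. Windows ran from 250 bases before to 50 bases after each start site, and letters were searched on both strands. The cyclic AMP response element TGACGTCA was present in the windows of Dusp1 and Btg2, against 1.79% of all 32851 windows. Its core TGACG, which the full element also contains, was in the windows of 17 of 29 members, against 20.8% of all windows. TATAAA was in the windows of Fos, Junb, Gadd45b and Gadd45g, against 13.6% of all windows. A CArG box, the site of SRF, was in 1 member, Egr2 (1.63% of all windows). Bases further upstream and members without an entry were not searched, so other members may hold such sites elsewhere. The 29 members had 36 windows, and a member with several start sites was counted once if any of its windows held the letters. Shares of all windows count each window singly, so here and below they are not on the same base as counts of members. A match is a description of these letters and not evidence of binding.

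The stretches upstream of 3 immediate early genes are shown because they carry those letters, in capitals: TGACG and TATAAA for Fos, TGACGTCA for Btg2, and the CArG box for 1 start site of Egr2. Fos is at chr12:85473740-85473889 (plus strand), Btg2 at chr1:134079156-134079355 (minus strand) and Egr2 at chr10:67537719-67537868 (plus strand), each ending at the base before the start site.
Fos: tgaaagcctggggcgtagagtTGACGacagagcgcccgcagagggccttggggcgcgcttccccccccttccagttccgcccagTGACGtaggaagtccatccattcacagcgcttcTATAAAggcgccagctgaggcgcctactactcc
Btg2: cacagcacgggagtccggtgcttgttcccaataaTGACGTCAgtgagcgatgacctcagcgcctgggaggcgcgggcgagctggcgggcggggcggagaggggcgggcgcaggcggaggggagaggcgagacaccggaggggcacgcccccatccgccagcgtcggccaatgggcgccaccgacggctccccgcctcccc
Egr2: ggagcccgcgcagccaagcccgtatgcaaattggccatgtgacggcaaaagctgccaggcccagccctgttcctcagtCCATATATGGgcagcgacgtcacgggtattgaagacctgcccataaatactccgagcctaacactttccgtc

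Among the heat shock members, Hspa5 alone held CCAAT and CCACG spaced by 9 bases, the element through which stress of the endoplasmic reticulum acts, against 0.119% of all windows. The heat shock element of 3 alternating GAA and TTC triplets, the site of HSF1, was in 1 member, Hsph1 (0.603% of all windows). The shorter form, GAA and TTC with 2 bases between them in either order, was in 8 of 29 members, the immediate early genes Fosl2, Jun, Egr2 and Homer1 and the heat shock genes Hspa1a, Hspa1b, Hspb1 and Hsph1 (15.1% of all windows). Hspa1a and Hspa1b held it as GAAGATTC, and held CCAAT on the opposite strand (37.4% of all windows). The letters of these matches are in capitals in stretches of 150 bases before the start site, from chr17:34972157-34972306 (minus strand) and chr17:34959239-34959388 (minus strand). Hspa1a and Hspa1b are shown because their log2 fold changes had opposite signs. The printed stretches differed at 1 base, T149G, counted from 1 at the 5′ end with the base of Hspa1a first.
Hspa1a: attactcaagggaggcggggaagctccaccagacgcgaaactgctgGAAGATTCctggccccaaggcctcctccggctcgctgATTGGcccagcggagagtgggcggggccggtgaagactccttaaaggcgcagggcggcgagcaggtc
Hspa1b: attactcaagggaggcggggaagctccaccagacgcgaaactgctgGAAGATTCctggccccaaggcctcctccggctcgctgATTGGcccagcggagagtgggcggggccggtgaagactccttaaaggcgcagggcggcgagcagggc

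Libraries held 8609845 to 34718693 reads in genes and 13897 to 15440 genes with a count. The members took 0.761% to 0.930% of those reads in each library. Levels below are in CPM, a gene's share of the reads in genes on the usual CPM scale, with library sizes corrected for composition by TMM. Tbr1 was counted at 170 ± 16.5 CPM in WT and 120 ± 23.4 in KO animals (SD, n = 4 each), and the counts cannot show which part of the gene was removed. All 12 ganglion cell markers examined were counted, with a sum of 15968 to 18415 CPM in WT and 16404 to 18403 in KO animals. That sum rests mostly on Nefl, Gap43, Sncg and Stmn2, and single markers lay apart: Pou4f2 was at 282 CPM in WT and 163 in KO animals, and Thy1 at 418 and 316, both without overlap, while Nefm was at 876 and 1185 with overlap. Jam2, the adhesion gene for which J-RGCs are known, was at 528 ± 85.6 CPM in WT and 107 ± 21.5 in KO animals (SD, n = 4 each). In pooled cells, fewer cells of a type and less RNA per cell cannot be told apart.

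Markers of other cells differed between animals and genotypes. Photoreceptor markers (13 of 13 counted) summed to 35.6 to 233 CPM in WT and 21.7 to 992 in KO animals, with the highest sum in KO animal c. Müller glia and progenitor markers (12 of 12 counted) summed to 344 to 467 CPM in WT and 479 to 767 in KO animals, highest again in KO animal c. These sums did not overlap, but Clu (60.1 against 103 CPM) and Dkk3 (158 against 265 CPM) carried the separation. The other 10 markers summed to 129.8 to 237 CPM in WT and 138 to 418 in KO animals. Of these, Sfrp2 alone had a lower mean in KO animals, and it lay lower in every KO animal (18.9 against 6.97 CPM). The rest had higher means in KO animals with overlap, among them Sox2 (0.146 against 2.68 CPM) and Vim (22.5 against 23.1 CPM). Amacrine (262 to 287 against 309.9 to 336 CPM) and horizontal cell sums (48.0 to 68.2 against 96.4 to 128 CPM, Lhx1 at 0) did not overlap either. The amacrine sum was mostly Pax6 (234 against 279 CPM), and without it the sums overlapped at 24.0 to 59.4 and 30.2 to 60.3 CPM. Of the tested amacrine markers, Gad2 alone had a lower mean in KO animals (18.01 against 8.53 CPM). The others had higher means there, among them Slc6a9 (10.1 against 23.1 CPM). The horizontal sum was mostly Calb1 and Sept4, and the other 3 markers reached at most 10.8 CPM together. The genes left out of these sums were chosen after their values were seen. Microglia markers (10 of 10 counted) summed to 28.1 to 159.5 CPM in WT and 14.8 to 77.3 in KO animals, highest in WT animal a. Endothelial and pericyte markers summed to 4.74 to 28.7 CPM over all animals, with Kcnj8 at 0.

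None of the 29 members that passed the filter on low counts passed the test between genotypes. With edgeR's quasi-likelihood test, Benjamini-Hochberg adjusted over all 13957 genes tested, 40 genes were called (0.287%), and the members' adjusted p ran from 0.285 to 0.998. Of the members, 5 of 29 (17.2%) had an unadjusted p under 0.05 in that test, against 7.09% of all tested genes. The lowest were Hspa1b, Jund, Klf6, Fos and Gadd45g, and they did not share a direction. The 4 KO animals lay wholly above or below the 4 WT animals in 3 of 29 members (10.3%), against 5.06% of all tested genes. Hspa1b, which is in both of these counts, passed the filter on low counts through the WT animals alone. KO minus WT log2 fold changes were positive for 13 members and negative for 16, with a median of -0.05 against -0.0007 over all tested genes. DESeq2 called 1 of 29 members, Hspa1b, and 156 of 13896 genes tested.

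**Figure D1:**
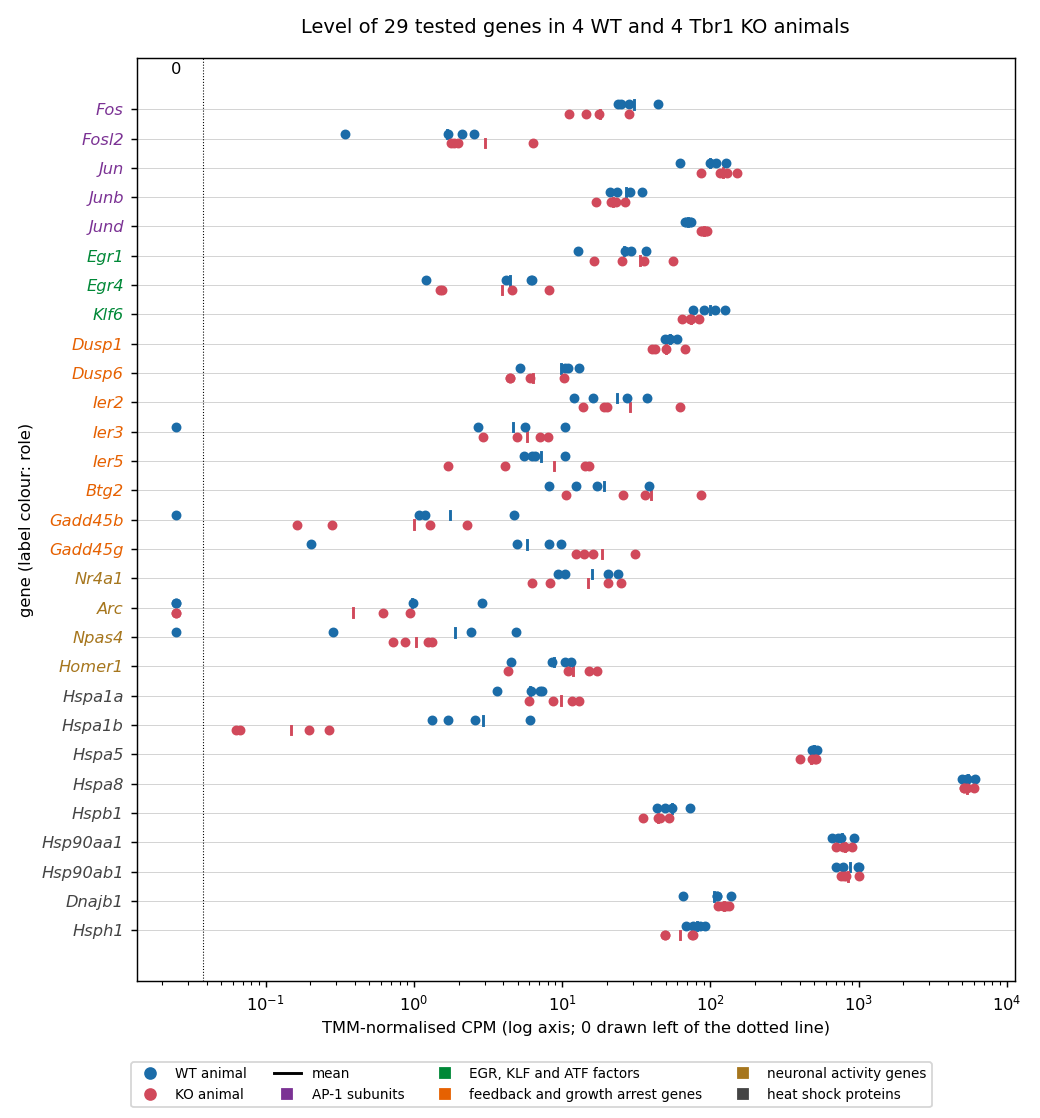
Level of each tested member, as TMM-normalised CPM on a log axis, in 4 WT (blue) and 4 Tbr1 KO animals (red); points are animals, ticks are means, and zeros are drawn left of the dotted line. Hspa8 lies at 5013 CPM or more in all animals, Arc at 2.88 CPM or less, and the genotypes separate for Jund, Gadd45g and Hspa1b.

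Of the 6 AP-1 subunits, 5 were tested and none was called. Levels per kilobase of exon put Jund first (48.3 CPM per kb over the 8 animals), then Jun (34.5), Junb (10.6) and Fos (10.2), with Fosl2 at 0.241 and Fosb at 0.0370. Junb and Fos were close, and their animals' ranges in CPM overlapped.

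Fos (chromosome 12, 85473890 to 85477273, plus strand), the prototype of the class, was at 25.0, 23.7, 44.1 and 28.4 CPM in WT animals a to d and at 14.4, 11.1, 28.5 and 17.6 in KO animals a to d. KO animals a, b and d lay below all WT animals, and KO animal c reached the range of WT. Means were 30.3 ± 9.42 and 17.9 ± 7.53 CPM (SD, n = 4 each), a log2 fold change of -0.76 ± 0.33 (SE) with an edgeR adjusted p of 0.661. Its partner Jun (chromosome 4, 95049034 to 95052222) was at 62.0, 99.1, 109 and 127 CPM in WT and at 86.1, 129, 117 and 152 in KO animals, with overlap between genotypes. The log2 fold change of Jun was 0.29 ± 0.22 (SE, edgeR adjusted p = 0.900). For Jun it was 0.12 without WT animal a, 0.43 without WT animal d and 0.16 without KO animal d. Neither AP-1 partner passed the test.

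Jund (chromosome 8, 70698949 to 70700616), a JUN protein that is made in resting cells as well, had the smallest spread between summed animals of 1 genotype among the tested members. It was at 74.2, 68.6, 67.0 and 72.3 CPM in WT animals and at 93.5, 88.2, 85.9 and 95.1 in KO animals. All KO animals lay above all WT animals, by a log2 fold change of 0.36 ± 0.13 (SE, edgeR adjusted p = 0.525; exact two-sided permutation p = 0.0286, unadjusted and the smallest that 4 against 4 allow). Of the markers of other cells, Gnat1, Pax6, Calb1, Sept4, Clu and Dkk3 also lay higher in every KO animal. Sfrp2 lay lower in every KO animal, and the other tested markers of other cells overlapped. The part of other cells in the level of Jund was not tested. The separation held for animals and not for single pools: the 5 WT libraries lay at 66.8 to 73.9 CPM, while the 2 libraries of KO animal a were at 112 and 58.6. Without KO library 1 the log2 fold change of Jund was 0.22 (edgeR adjusted p = 0.893), and KO animal a then lay below every WT animal. Exons of Jund overlap the annotated gene Gm11175, which runs the other way. Whether counting used strand is unknown here, so reads of the 2 genes cannot be told apart. The same holds for Jun with Junos, Junb with Prdx2, Dusp1 with Ergic1 and Hspa1a with Gm20481.

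Junb was at 26.9 ± 5.96 CPM in WT and 22.0 ± 4.05 in KO animals (SD, n = 4 each), with overlap. Fosl2 was at 0.345 to 2.53 CPM in WT and at 1.79 to 6.35 in KO animals, the highest value being that of KO animal a. Fosb, which marks stronger or repeated stimulation in many neurons, fell under the filter with 65 reads over the WT libraries (20, 35 and 10 in libraries 2, 4 and 5) and none over the KO libraries, where 3 counts over the group would be 0.0181 CPM. Floors of this kind cover counting error only, since the reads carry no molecular identifiers.

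Zinc finger and ATF factors were uneven: 3 of 8 were tested (Egr1, Egr4 and Klf6), and 5 were almost uncounted. Egr1 (chromosome 18, 34859823 to 34864984), a factor induced by synaptic activity through SRF, was at 12.9, 28.98, 26.6 and 36.7 CPM in WT and at 16.3, 25.4, 55.8 and 35.6 in KO animals. The genotypes overlapped, with KO animal c highest and WT animal a lowest. Its log2 fold change of 0.34 ± 0.38 (SE, edgeR adjusted p = 0.949) was -0.023 without KO animal c. Egr4, another member of the family, ranged from 1.21 to 8.12 CPM over the 8 animals.

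Egr2, whose CArG box is printed above, had no read in any of the 11 libraries, where 3 counts over all of them would be 0.0101 CPM. Egr3, a target of neuronal calcium signalling, had 51 of its 55 reads in KO library 5. Atf3, known as a marker of axon injury in ganglion cells, had 21 reads, all in WT library 4. Klf2, a factor typical of endothelial cells, had 76 reads in WT library 1, 13 in WT library 3 and 1 in KO library 2. Klf4, known to restrain axon regrowth of ganglion cells, had 112 of its 160 reads in KO library 3. For these genes the reads therefore came mainly from 1 or a few pools.

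Klf6 (chromosome 13, 5861482 to 5870394), a relative that is known to favour axon growth, was well expressed in every animal. It was at 125, 76.7, 90.1 and 107 CPM in WT animals and at 83.2, 64.8, 73.1 and 74.5 in KO animals. Only KO animal a reached the range of WT, whose highest value was that of animal a. The means of 99.6 ± 20.8 and 73.9 ± 7.56 CPM (SD, n = 4 each) gave a log2 fold change of -0.43 ± 0.17 (SE, edgeR adjusted p = 0.584). WT animal a also had the highest microglia marker sum, and the part of those cells in the level of Klf6 was not tested.

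All 8 feedback and growth arrest genes were tested, and none was called. Dusp1, a phosphatase that switches MAP kinases off, was the most abundant of them in CPM per kb (15.7) after Ier2 (17.1), and was at 53.7 ± 4.12 CPM in WT and 50.1 ± 12.3 in KO animals (SD, n = 4 each). Dusp6, its relative specific for ERK, was at 9.86 ± 3.27 and 6.31 ± 2.76 CPM. For both phosphatases the genotypes overlapped.

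Gadd45g (chromosome 13, 51846678 to 51848468), a stress and growth arrest protein that also marks cells leaving the cell cycle in developing neural tissue, was at 0.202, 4.95, 8.13 and 9.83 CPM in WT animals. In KO animals it was at 13.9, 16.3, 31.2 and 12.5 CPM. All KO animals lay above all WT animals, and the log2 fold change was 1.67 ± 0.74 (SE, edgeR adjusted p = 0.683; exact permutation p = 0.0286, unadjusted). Single pools overlapped, since KO library 2 was at 8.59 CPM and WT library 5 at 9.80. KO animal c, the highest for Gadd45g, also had the highest sum of Müller glia and progenitor markers, with or without Clu and Dkk3 (767 and 418 CPM). In the other KO animals the full sum lay above the range of WT (479 CPM or more against at most 467). Their sum without Clu and Dkk3, which were left out after their values were seen, lay within the range of WT. The part of those cells in the level of Gadd45g was not tested. Gadd45b, its paralog, was at 0 to 4.72 CPM in WT and 0.161 to 2.27 in KO animals.

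Btg2 (chromosome 1, 134075170 to 134079120), an antiproliferative gene of stressed cells and of neural progenitors, was at 8.19, 17.1, 12.5 and 38.8 CPM in WT and at 10.6, 36.2, 86.4 and 25.9 in KO animals. The genotypes overlapped, and the highest value was again that of KO animal c. Its log2 fold change of 1.05 ± 0.58 (SE, edgeR adjusted p = 0.793) was 0.34 without KO animal c and 1.66 without WT animal d. Ier2, a nuclear protein induced by growth factors, was at 16.1, 12.1, 27.4 and 37.6 CPM in WT and at 13.7, 20.01, 62.1 and 19.0 in KO animals. Here KO animal c alone exceeded WT, and the log2 fold change of 0.30 ± 0.48 (SE, edgeR adjusted p = 0.973) was -0.40 without it. KO animal c had 992 CPM of photoreceptor markers, and their part in these levels was not tested. Ier5 (1.69 to 15.1 CPM over the 8 animals) and Ier3 (0 to 10.5 CPM) were lower and uneven.

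Of the 5 neuronal activity genes, Arc, Npas4 and Nr4a3 were scarce, while Nr4a1 and Homer1 were counted in all 11 libraries. Arc, a capsid-like synaptic protein, was at 0, 0.984, 2.88 and 0 CPM in WT and at 0.936, 0, 0.622 and 0 in KO animals. Npas4, a factor that responds to calcium entry in neurons, was at 0, 4.87, 2.41 and 0.283 CPM in WT and at 0.869, 1.33, 1.24 and 0.721 in KO animals. Both genes were thus at 0 in WT animal a and had overlapping genotypes. Nr4a3, an orphan nuclear receptor, had at most 0.772 CPM in any animal and fell under the filter.

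Nr4a1 (chromosome 15, 101254269 to 101274795), another orphan nuclear receptor of the class, was at 20.3, 10.4, 23.8 and 9.36 CPM in WT and at 20.4, 8.22, 6.22 and 25.0 in KO animals. Each genotype held 2 high and 2 low animals, and the log2 fold change was -0.09 ± 0.48 (SE, edgeR adjusted p = 0.997). Its sign depended on single animals, at 0.17 without KO animal c and -0.45 without KO animal d. Homer1 (chromosome 13, 93299635 to 93405129), a postsynaptic scaffold with a short activity-induced form that these counts per gene cannot separate, was at 4.52, 8.599, 10.5 and 11.6 CPM in WT and at 15.1, 17.2, 10.97 and 4.33 in KO animals. Its genotypes overlapped as well, with a log2 fold change of 0.44 ± 0.46 (SE, edgeR adjusted p = 0.941). The libraries of KO animal a were at 4.55 and 34.8 CPM of Homer1, a wider gap than between the 2 genotype means. The log2 fold change of Homer1 was 0.93 without the first of these libraries and 0.082 without the second. It was 0.23 without WT animal a, 0.20 without KO animal b, 0.71 without KO animal d and 0.24 without WT library 2.

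**Figure D2:**
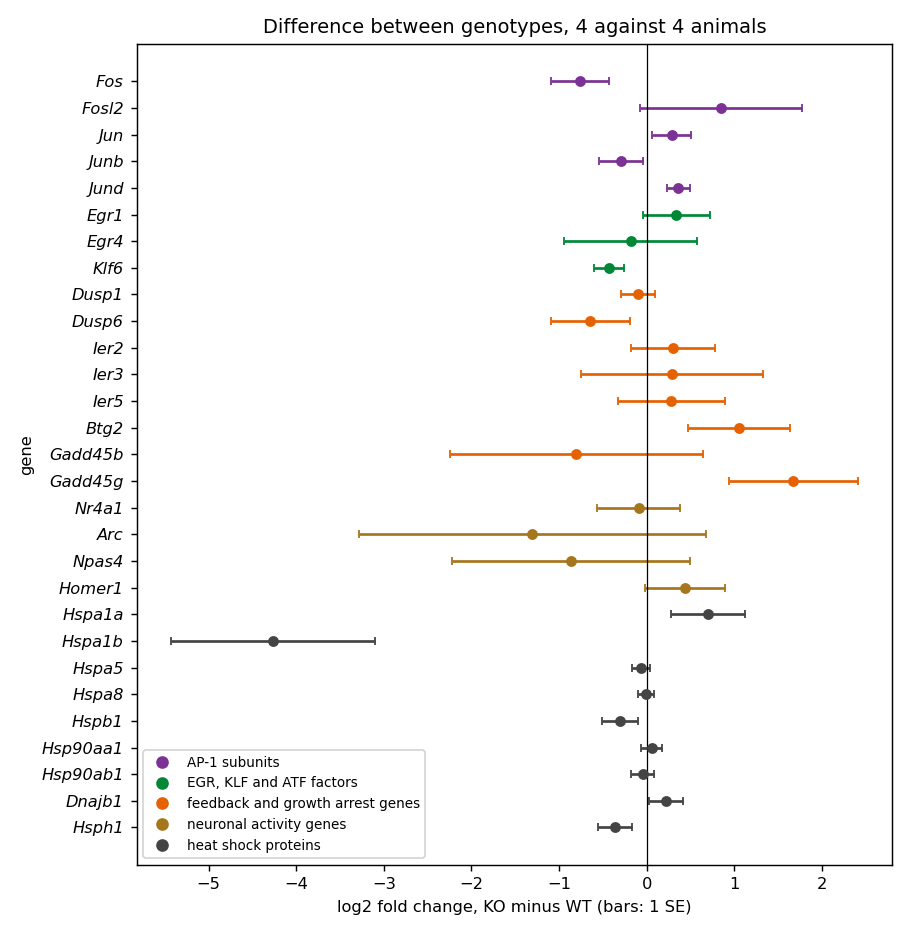
Log2 fold change of each tested member, KO minus WT, from the edgeR fit over 4 and 4 animals; bars are 1 SE and colours are roles. Chaperones other than Hspa1a and Hspa1b sit between -0.36 (Hsph1) and 0.22 (Dnajb1), and Hspa1b at -4.27.

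All 9 heat shock members were tested. The constitutive cytosolic chaperones held most of the members' reads. Per kilobase of exon, Hspa8 was highest of the 36 members (1266 CPM per kb over the 8 animals), followed by Hsp90ab1 (286), Hsp90aa1 (200.5) and Hspa5 (116). Hspa8 (chromosome 9, 40800984 to 40810087), the constitutive HSP70, was at 5013, 5401, 6084 and 5369 CPM in WT and at 5979, 5165, 5177 and 5388 in KO animals. The genotypes overlapped nearly throughout, with a log2 fold change of -0.01 ± 0.09 (SE, edgeR adjusted p = 0.998). Its count is uncertain where reads also match near-identical copies.

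The HSP90 pair, chaperones of kinases and receptors, came next. Hsp90ab1 (chromosome 17, 45567775 to 45573271) was at 707, 990.4, 1007 and 783 CPM in WT and at 798, 821, 762 and 999 in KO animals. Hsp90aa1 (chromosome 12, 110690605 to 110702728), the more inducible of the pair, was at 661, 765, 930.4 and 731 CPM in WT and at 813, 789, 708 and 907 in KO animals. Both overlapped between genotypes, with log2 fold changes of -0.05 ± 0.13 and 0.06 ± 0.12 (SE; edgeR adjusted p = 0.990 and 0.980). Hspa5 (chromosome 2, 34771970 to 34777547), the HSP70 of the endoplasmic reticulum, was at 522, 496, 499 and 483 CPM in WT and at 518, 405, 507 and 485 in KO animals. KO animal b was its low value, and the log2 fold change was -0.06 ± 0.10 (SE, edgeR adjusted p = 0.974).

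Cochaperones and small chaperones gave mid levels. Hsph1 (chromosome 5, 149614287 to 149636376), an exchange factor for HSP70, was at 76.3, 68.8, 92.5 and 85.7 CPM in WT and at 75.2, 76.8, 49.6 and 49.7 in KO animals. KO animals c and d lay below every WT animal, and the log2 fold change was -0.36 ± 0.19 (SE, edgeR adjusted p = 0.776). Dnajb1, the inducible HSP40, was at 106 ± 29.6 CPM in WT and 124 ± 8.602 in KO animals, and Hspb1, a small heat shock protein, was at 55.0 ± 12.5 and 44.5 ± 7.08 CPM (SD, n = 4 each), both with overlap.

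The stress-inducible HSP70 genes had low counts in all animals and differed from each other. Hspa1a (chromosome 17, 34969190 to 34972156) was at 7.30, 7.12, 3.63 and 6.15 CPM in WT and at 6.01, 13.0, 8.65 and 11.6 in KO animals, with overlap and a log2 fold change of 0.70 ± 0.42 (SE, edgeR adjusted p = 0.834). Its neighbour Hspa1b (chromosome 17, 34956436 to 34959238) was at 6.09, 1.32, 2.58 and 1.70 CPM in WT and at 0.0668, 0.197, 0.267 and 0.0627 in KO animals. All KO animals lay below all WT animals, and the same was true of the single libraries, at 0.815 to 6.07 CPM in WT and 0 to 0.317 in KO.

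These values rest on 345 reads over the WT and 25 over the KO libraries for Hspa1b. Every KO animal lay under the level that the filter on low counts asks for, so Hspa1b was tested only because of its WT level. Its lack of overlap and its p-values are therefore a description and no independent support for a difference. The log2 fold change of Hspa1b was -4.27 ± 1.16 (SE) with an edgeR adjusted p of 0.285 and an exact two-sided permutation p of 0.0286. DESeq2 gave an adjusted p of 0.00556. WT animal a, which had the highest microglia marker sum, was also highest for Hspa1b, and without it the log2 fold change was -3.62 (edgeR adjusted p = 0.537). The coding sequences of the 2 genes have 99.43% identical aligned positions, the 5′ untranslated parts 98.7% and the 3′ untranslated parts 48.09%. Reads that align to several places were listed apart from the genes. The level of each of the 2 genes may therefore be understated, and the split of reads between them is uncertain. Counting both as 1 gene does not bring back the reads listed apart. Counted so, they were at 13.4, 8.44, 6.22 and 7.85 CPM in WT and at 6.08, 13.2, 8.92 and 11.7 in KO animals, with overlap and a log2 fold change of 0.15 ± 0.39 (SE, edgeR adjusted p = 0.986).

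**Figure D3:**
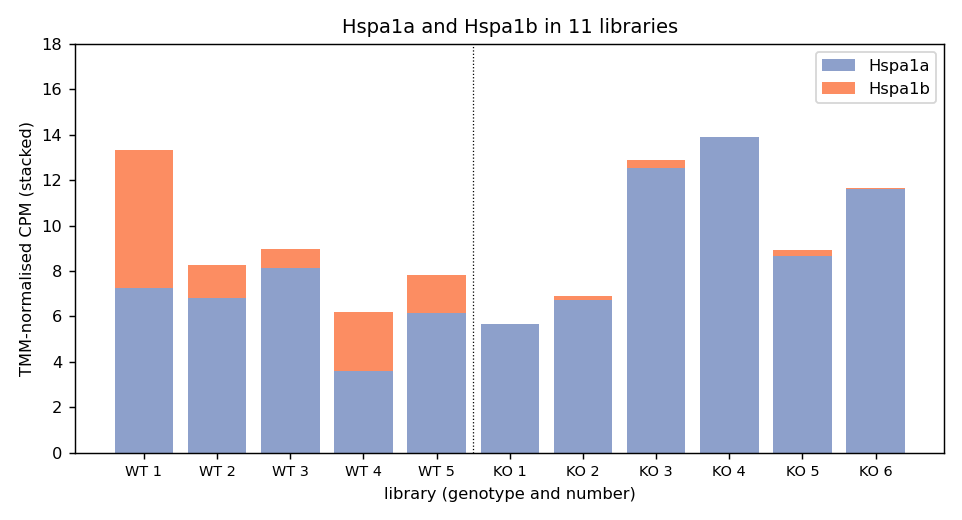
Hspa1a (blue) and Hspa1b (orange), as stacked TMM-normalised CPM, in 5 WT and 6 Tbr1 KO libraries. Hspa1b adds 0.815 to 6.07 CPM in WT libraries and at most 0.317 in KO libraries, while the sums overlap.

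Spread between animals was the second measure. It was taken as the residual SD of log2 CPM about the genotype mean (prior count 0.5, 8 animals). The heat shock members had a median of 0.28 and the tested immediate early members one of 0.85, against 0.43 over all tested genes. Above the median of all genes lay 15 of 20 immediate early members and 2 of 9 heat shock members, Hspa1a and Hspa1b. At or above the 90th percentile lay 4 of 29 members (13.8%; Arc, Ier3, Gadd45b and Npas4), against 10% of all genes tested, and 2 members lay there without WT animal a. Jund had the smallest SD of the members (0.07, percentile 0.215) and Arc the largest (3.74, percentile 98.7). The small SD of Jund holds for summed animals, since the libraries of KO animal a were at 112 and 58.6 CPM.

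Low counts widen this SD, so each member was also read against the trend of variation with level. The biological coefficient of variation lay above that trend in 13 of 29 members (44.8%), against 33.2% of all tested genes. Of these, 12 were immediate early genes (of 20 tested) and 1 a chaperone, Dnajb1. The ratio to the trend was highest for Btg2 (1.79), Arc (1.55), Gadd45g (1.54) and Ier2 (1.45), and lowest for Jund (0.728). The immediate early members were listed as genes thought to vary with handling, so these counts are a description.

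**Figure D4:**
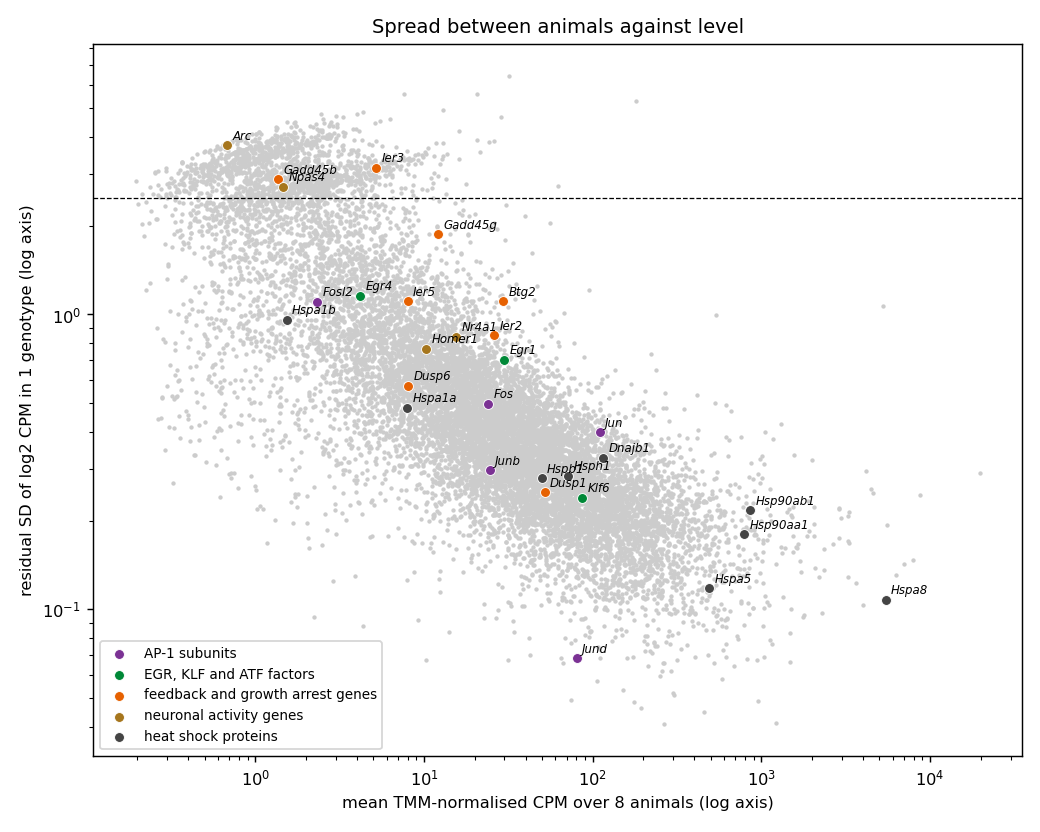
Residual SD of log2 CPM between animals of 1 genotype against mean CPM, both on log axes, for all 13957 tested genes (grey) and 29 members (colours by role); the dashed line is the 90th percentile. Gadd45g, Btg2, Ier2 and Egr1 lie high for their level, and Jund low.

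The animals did not share 1 order. Of the 20 tested immediate early members, 6 were highest in KO animal c (Egr1, Egr4, Ier2, Ier5, Btg2 and Gadd45g), 4 in WT animal c, 4 in KO animal d and 3 in WT animal a. Each of these animals gave 1 pool. WT animal b and KO animals a and b, with 2 pools summed, held 1 highest value each, and WT animal d, with 1 pool, held 0. The part of the number of pools in this order was not tested. The lowest value was in WT animal a for 8 of them and in KO animal b for 5, counting Arc, which was at 0 in both and in WT and KO animals d, for each. Summed over the 27 listed immediate early genes, levels were 449, 465, 545 and 596 CPM in WT animals a to d and 456, 502, 674 and 585 in KO animals a to d, so the genotypes overlapped. WT animal a, with the lowest sum, had 24830192 reads from 1 pool, the fewest of the 8 animals. Its library held 13897 genes with a count, and that of KO animal c held 15398. The highest and lowest animals were not counted over all tested genes. The heat shock sums ran from 7175 CPM in WT animal a to 8736 in WT animal c.

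**Figure D5:**
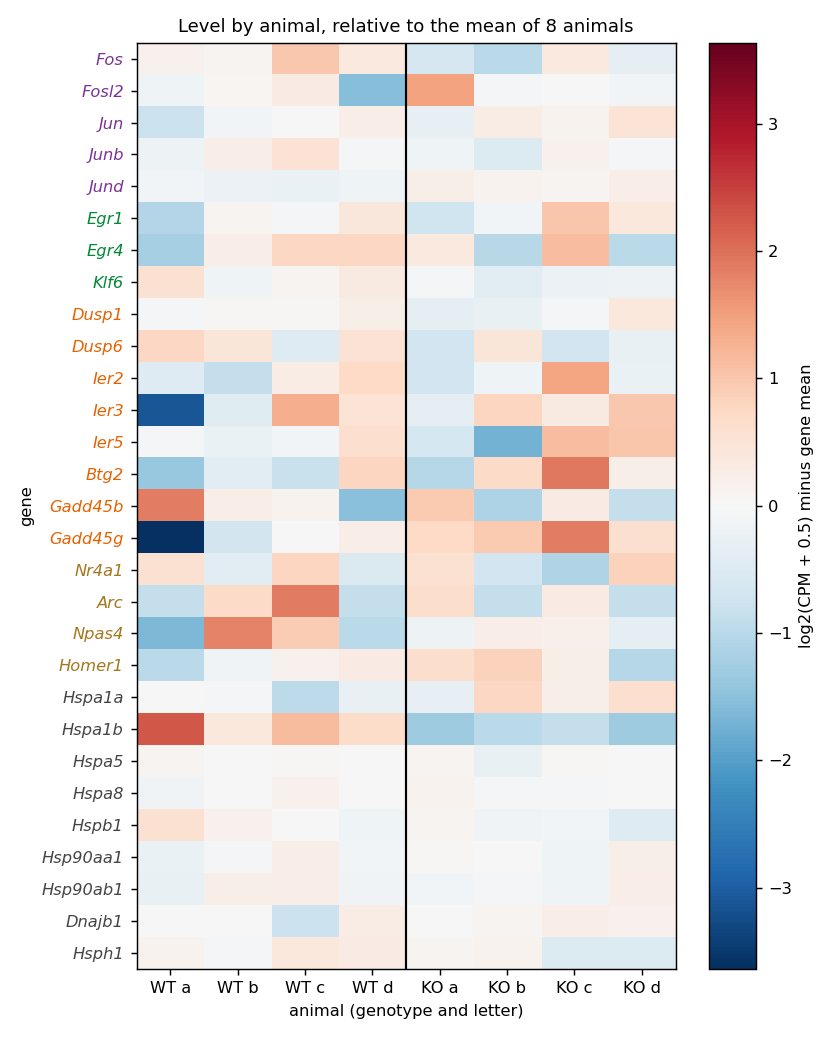
Log2(CPM + 0.5) of each tested member minus its mean over the 8 animals, red for higher and blue for lower, with the colour scale reaching the largest value. WT animal a is low and KO animal c high for several immediate early genes, while most chaperones stay near 0.

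Pools of 1 animal gave a second view of this spread, since both pools share the animal and its genotype. The median absolute log2 ratio between pools was 0.56 in WT animal b, 0.73 in KO animal a and 0.31 in KO animal b for the members, against 0.52, 0.43 and 0.40 for all tested genes. At least 2-fold apart were 9, 8 and 9 of 29 members, against 27.3%, 23.2% and 23.2% of all genes in the same order. In KO animal a, Btg2 was at 14.7 and 3.08 CPM. In KO animal b, Nr4a1 was at 2.94 and 17.0 CPM, Egr1 at 33.1 and 12.8, and Ier5 at 2.71 and 0. Hspa8 was at 5814 and 6312 CPM in KO animal a.

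Other genes of the same systems were read from 4 lists, and none of their tested genes was called by the edgeR test. Of 43 further immediate early genes, 37 were tested, with 21 positive and 16 negative log2 fold changes and a median of 0.03. The smallest unadjusted p belonged to Nptx2, a synaptic pentraxin induced by activity, at 25.1 CPM in WT and 6.28 in KO animals (log2 fold change -1.99 ± 0.67, SE; edgeR adjusted p = 0.472), then to Nab1, a corepressor of EGR factors (0.48 ± 0.21), and Bhlhe40, a repressor of the clock (-0.78 ± 0.45). Of 24 upstream kinases and factors, all tested, 12 were positive and 12 negative (median 0.0004). Camk4, a nuclear calcium-dependent kinase that acts on CREB, had the third smallest p (218 against 193 CPM; -0.18 ± 0.12). Camk2a, a calcium-dependent kinase, was higher in every KO animal (130 against 173 CPM; 0.41 ± 0.12), and Mkl2, a coactivator of SRF, was lower in every KO animal (87.1 against 58.1 CPM; -0.58 ± 0.19), with edgeR adjusted p of 0.350 and 0.465. Mef2c was also lower in every KO animal (3.90 against 1.87 CPM). Over all tested genes, 5.06% had animals that did not overlap between genotypes.

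Of 36 further chaperones and heat shock factors, 34 were tested, 12 positive and 22 negative (median -0.06). Stub1, a ligase that marks chaperone clients for decay, was lower in every KO animal (166 against 134 CPM; log2 fold change -0.30 ± 0.11, SE; edgeR adjusted p = 0.543), and Hspa2 (-0.54 ± 0.22) and Ahsa1 (-0.26 ± 0.12) came next. Of 23 genes of the unfolded protein response, the pathway that drives Hspa5, all were tested, 11 positive and 12 negative (median -0.0015). Dnajc3, a cochaperone of the endoplasmic reticulum, had the smallest p (31.4 against 20.1 CPM; -0.64 ± 0.28, SE; edgeR adjusted p = 0.684), followed by Asns (-0.17 ± 0.11) and Manf (-0.30 ± 0.24). Of these, Asns alone was lower in every KO animal.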

How the data were processed

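RNA was sequenced from a single end in 11 libraries of sorted J-RGC pools, made with Smart-seq2 and Nextera XT per the labels' protocols. The authors deposited unnormalised counts of reads for each gene symbol, and the submitters' processing notes name Trimmomatic 0.32, TopHat2 2.0.10 and HTSeq 0.6.1 with the GRCm38 build. Lines that name no gene (36.1% to 39.9% of each library) were left out. Counts were summed per animal, filtered with filterByExpr, scaled by TMM, then fitted in edgeR 4.0.16 (R 4.3.3) with glmQLFit, robust, and glmQLFTest (Benjamini-Hochberg over all genes, threshold 0.05); SE is the log2 fold change divided by the root of F. The fit was tested on simulated data. Alternatives used limma 3.58.1 and DESeq2 1.42.0. Positions came from GENCODE M21. Members and lists were chosen with earlier results of these data known. Values per animal are given for the 6 members with the smallest p, the 6 with the largest SD at 10 CPM or more, the 4 highest, and Fos, Jun, Egr1 and Hspa1a, and for others seen to stand out; Arc and Npas4 are among these. From each further list, 3 genes with the smallest p are named, and Mef2c is named because its animals did not overlap.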

Additional observations from a re-analysis of the deposited data

Results flagged for a closer look

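Fosl2 in KO animal a was at 6.35 CPM, a value far from those of the other 3 KO animals (1.79 to 1.99 CPM). Its libraries were at 7.49 and 4.23 CPM. Of 58 sets of 4 animals examined, 1 stood out in this way, and chance alone gives about 1 in 20.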

How the results depend on the processing

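No member was called in any alternative other than DESeq2, which called 1 (Hspa1b). With a filter of at least 5 CPM in 4 animals, 23 members were tested, and Hspa1b was not among them. The count over all genes, 40, was 84 with libraries as replicates, 74 with limma voom and 156 with DESeq2, and 17 to 44 when 1 animal or library was left out (18 without WT animal b, 22 without KO animal a, 17 without KO animal b, 25 without KO animal d). Correlations between same-numbered libraries of the genotypes were -0.029 to 0.14. WT libraries 1, 2 and 5 correlated best with the KO library of their own number, and WT libraries 3 and 4 with another. Whether numbers pair the genotypes was not tested, and the replicate block called 43 genes and 0 members. The count of members at or above the 90th percentile of spread was 2 to 4 with 1 animal left out. Hspa1b was 0.15 on the log2 scale when counted with Hspa1a, an alternative chosen after seeing the data. Log2 fold changes across settings were read only for the members chosen by p, SD, level or name as given above. Of these, 7 besides Hspa1b changed sign under some settings, and the other tested members were not read in this way. Hspa8 gave 0.014 with libraries as replicates, 0.018 with the replicate block, 0.0019 with upper-quartile and 0.0075 with total-count scaling. With 1 animal or library left out, ranges were -0.061 to 0.045 for Hspa8, -0.14 to 0.060 for Hsp90ab1, -0.0030 to 0.16 for Hsp90aa1, -0.10 to 0.0094 for Hspa5, -0.45 to 0.17 for Nr4a1, -0.40 to 0.63 for Ier2 and -0.023 to 0.56 for Egr1; the cause was not tested. At 8609845 to 34718693 reads in genes, members under about 1 CPM rest on few reads in single pools.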
